A study of Mus musculus with 17 samples.

Results

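Solid tumours growing on the intestine were set against tumours growing under the skin, both formed by ID8, a mouse ovarian cancer line derived, per its label, from mouse ovarian surface epithelium. The members were chosen by their labels: the libraries ID8-Met_Int 1, 2 and 3 (intestinal metastases, n = 3) and ID8-sc 2 and 3 (subcutaneous tumours, n = 2), 5 of the 17 libraries of the series. Per the labels' protocols, ID8 cells had been placed in the bursa of the right ovary and had spread from there to the intestine, while the subcutaneous tumours were grown on the flanks. The labels of the subcutaneous samples themselves name the scruff. Both groups carry the same cells with no further allele or agent, and no strain, sex, age or time of growth of the tumour-bearing mice was given in the sources used here. The labels give neither the segment of the gut nor how much gut wall was taken along, and do not say which samples share an animal, so that the p-values measure spread between samples, which may be technical. That spread was estimated over all 17 libraries, most of them from the other groups of the series. The C57BL6 Intestine library (n = 1) is shown as the gut tissue reference and the orthotopic (ovarian) ID8 tumours (n = 3) are given where a level needs a comparison.

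ID8 cells spread over the lining of the abdominal cavity, and a tumour seated on the bowel touches a wall with several layers. Its inner face is a sheet of absorptive enterocytes, mucus-making goblet cells, antimicrobial Paneth cells and hormone cells, under which lie antibody-secreting plasma cells and then smooth muscle and enteric nerves. The transcription factors CDX2 and HNF4A are known to hold the enterocyte programme, including the digestive enzymes of the brush border. A tumour under the skin instead touches keratinocytes, fat and skin-draining lymphoid tissue. In bulk RNA, fewer cells of a type and less RNA per cell cannot be told apart.

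The promoters of 3 genes at the ends of the comparison are shown first, because the results turn on gut enzyme genes on one side and a skin keratin on the other. Sis encodes sucrase-isomaltase of the brush border, Fabp1 the fatty acid binding protein of liver and proximal gut, and Krt5 the keratin of basal keratinocytes. The sequences are RefSeq's, on build GRCm38.p6, from 250 bases before to 50 after the gene start, written 5′ to 3′ along the gene: Sis at chr3:72967814-72968113 on the minus strand, Fabp1 at chr6:71199629-71199928 on the plus strand and Krt5 at chr15:101712856-101713155 on the minus strand. Capitals mark matches on either strand to 3 short motifs. For CDX factors TTTATG was used. The AP-2 motif was spelled GCCNNNGGC, where N is any base. A TATA box was read as TATAAA.
Sis: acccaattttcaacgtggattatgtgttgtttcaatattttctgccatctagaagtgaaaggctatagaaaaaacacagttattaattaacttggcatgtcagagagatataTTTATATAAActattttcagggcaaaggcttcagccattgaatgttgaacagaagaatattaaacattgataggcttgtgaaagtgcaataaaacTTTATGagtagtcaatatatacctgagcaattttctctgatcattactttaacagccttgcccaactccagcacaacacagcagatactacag
Fabp1: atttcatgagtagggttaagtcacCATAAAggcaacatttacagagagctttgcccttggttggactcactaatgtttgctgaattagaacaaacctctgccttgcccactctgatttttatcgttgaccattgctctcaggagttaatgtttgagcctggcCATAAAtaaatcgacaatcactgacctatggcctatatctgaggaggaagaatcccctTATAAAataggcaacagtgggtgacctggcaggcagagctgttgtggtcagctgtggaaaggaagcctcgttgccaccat
Krt5: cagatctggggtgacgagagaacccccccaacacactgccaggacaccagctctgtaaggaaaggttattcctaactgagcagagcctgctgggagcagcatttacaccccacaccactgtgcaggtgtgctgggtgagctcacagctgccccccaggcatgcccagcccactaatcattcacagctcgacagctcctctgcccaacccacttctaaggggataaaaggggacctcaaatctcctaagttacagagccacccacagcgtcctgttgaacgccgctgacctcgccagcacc

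Sis held 3 such matches, a CDX motif and a TATA box read on both strands, whose letters overlap. Fabp1 held 3, with CDX present at 2 places, and Krt5 held 0. Of the 57 genes called higher on the 5 gut epithelial lists described below, 45 had a promoter in the RefSeq table. CDX stood in 10 of these (22.2%), against 12.1% of all 27025 promoters, TATA in 11 (24.4%), against 14.2% of all, and AP-2 in 5 (11.1%), against 16.5% of all. These are matches of letters in a window and not binding sites.

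Across the genome, 756 of 22671 genes tested were called higher in the intestinal metastases than in the subcutaneous tumours (3.33%) and 241 were called lower (1.06%). A call is an adjusted p under 0.05 in edgeR's quasi-likelihood test with Benjamini-Hochberg adjustment over all genes, and a positive log2 fold change means higher in the metastases. Every one of the 756 had all 3 metastases above both subcutaneous tumours, a pattern held by 3797 genes in all (16.7%). Of the 241, 230 had all 3 metastases below both, a pattern held by 4398 genes (19.4%). A fit of only the 5 libraries compared called 0 genes in either direction, with 3741 at an unadjusted p under 0.05, so every call given here rests on the spread shared with the other groups. The median log2 fold change over all genes tested was -0.25. With library totals in place of TMM scaling (a trimmed mean of log ratios), that median shifted by -0.4 and the split became 420 higher against 245 lower. With TMM factors taken only from genes under 1 CPM (read count scaled to library depth) in healthy intestine it shifted by 0.81, and the split became 1306 higher against 103 lower.

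How many genes were called turned on single libraries: 13 were called either way without subcutaneous tumour 2 (0.0573%), and without subcutaneous tumour 3, 680 were (3.0%). Of the calls with all 5 libraries, 8 higher and 3 lower ones were kept without subcutaneous tumour 2, so that every call described below is lost in that fit unless it is said to stay. The counts were 408 without intestinal metastasis 1, 300 without intestinal metastasis 2 and 1408 without intestinal metastasis 3. The metastases correlated with each other at 0.936 to 0.958 (Pearson's r of log2(CPM + 1) across genes, which are not independent replicates) and the subcutaneous tumours at 0.867. Each metastasis lay closer to the healthy intestine library, at 0.934 to 0.975, than to either subcutaneous tumour, at 0.799 to 0.884. Total counts ran from 12031221 to 33620710 in the metastases and were 24145706 and 15014218 in the subcutaneous tumours. Subcutaneous tumour 3 had a count in 33393 genes, while the other 4 libraries had 23151 to 25869. The mitochondrial share of counts was 6.28% to 8.3% in the metastases, against 14% and 10.7% in subcutaneous tumours 2 and 3. Library names also differ in series between the sites (S12, SM7 and SM8 against SCT2 and SCT3), and whatever these series stand for cannot be told apart from the site.

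The genes called higher were, with few exceptions, genes that healthy intestine expresses. Of the 756, 753 stood at 1 CPM or more in the healthy intestine library, which is 4.97% of the 15163 genes tested at that level. At 10 CPM or more were 96.8% of them, against 40.4% of all genes tested. Among the 7508 genes under 1 CPM in healthy intestine, 3 were called higher (0.04%) and 84 lower (1.12%), while 157 of the 15163 were called lower (1.04%). The split under 1 CPM depended on scaling and test. With TMM factors taken only from those low genes it was 23 higher and 51 lower, and with DESeq2 32 higher and 446 lower. The median level of the genes called higher was 142.6 CPM in the metastases, against 8.67 CPM in the subcutaneous tumours, 8.4 CPM in the orthotopic tumours and 175.3 CPM in healthy intestine.

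Relative to healthy intestine, the 753 genes had a median of 93.9%, 112.7% and 42.4% of its level in metastases 1, 2 and 3, against 6.18% and 6.53% in subcutaneous tumours 2 and 3. Metastasis 2 exceeded the healthy gut in 498 of these genes, metastasis 1 in 352 and metastasis 3 in 38. Over all 15163 genes at 1 CPM or more in the gut, the medians were 90.2%, 101.5% and 86.8% in the metastases, against 100.6% and 77.5% in the subcutaneous tumours. Metastasis 3 thus had the lowest gut-gene level of the 3 among the called genes.

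**Figure D1:**
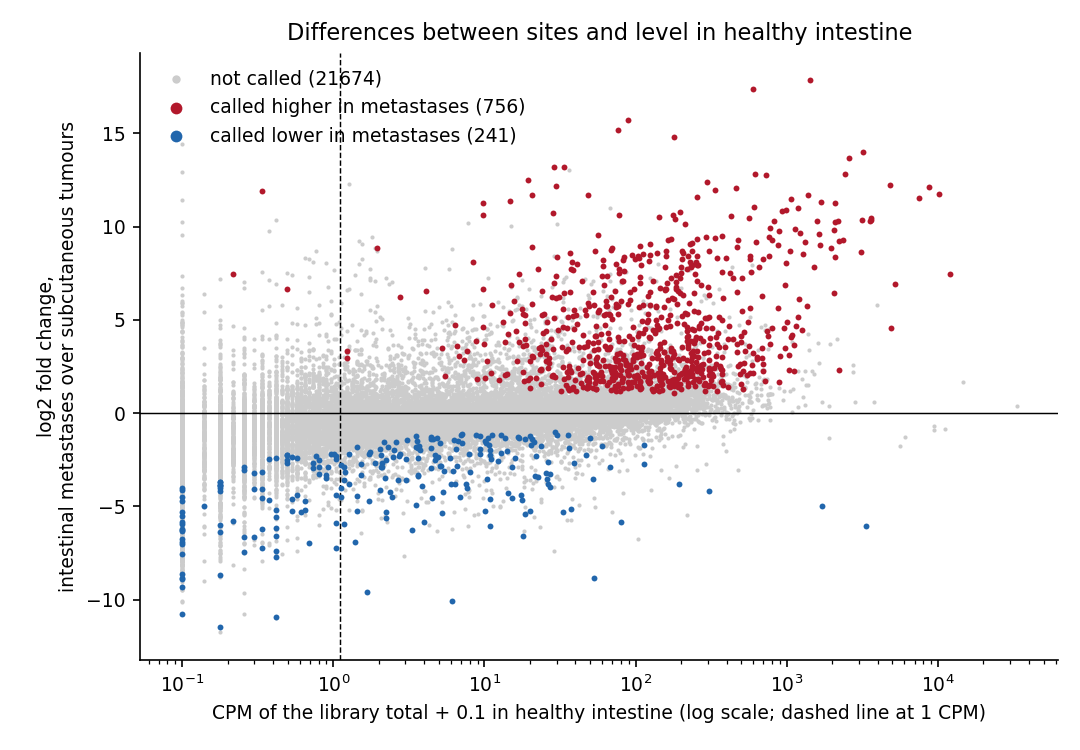
Each point is 1 of the 22671 genes tested, by its CPM of the library total in the healthy intestine library (horizontal, log scale, 0.1 added) and its log2 fold change of intestinal metastases over subcutaneous tumours (vertical). The 756 genes called higher (red) lie right of the dashed line at 1 CPM except for 3, while the 241 called lower (blue) lie on both sides of it.

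The 3 genes called higher while under 1 CPM in healthy intestine were named for that reason, after their values were seen. Car1, the carbonic anhydrase I gene, which is abundant in colon epithelium, had 3969.7, 24.2 and 121.5 CPM in metastases 1, 2 and 3, against 0.261 and 0.442 CPM in subcutaneous tumours 2 and 3 and 0.308 CPM in healthy intestine. It differed by 11.92 ± 2.39 (log2 fold change ± SE; adjusted p = 0.0216), and its call was lost without subcutaneous tumour 2 (adjusted p = 0.108) or 3 (adjusted p = 0.0857). The other two, AC113458.1 and Gm15452, stayed at or under 1.25 CPM in every metastasis and had no count in the subcutaneous tumours.

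Gut transcription factors were higher on the intestine. Of the 12 genes on the list, 8 rose and 0 fell, with a median log2 fold change of 7.25 against -0.25 over all genes tested. Hnf4a, a nuclear receptor of the enterocyte programme, had 2489.2, 1445.9 and 553.2 CPM in the metastases, against 0 and 1.62 CPM in the subcutaneous tumours. Cdx2, the homeobox factor that specifies gut epithelium, had 444.2, 197.5 and 75.1 CPM in the metastases, against 0 and 1.96 CPM in the subcutaneous tumours. In both genes metastasis 1 was highest and metastasis 3 lowest, and the groups did not overlap. The log2 fold changes were 10.86 ± 2.23 for Hnf4a (adjusted p = 0.0232) and 7.94 ± 1.82 for Cdx2 (adjusted p = 0.0347).

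Vil1, a gut epithelium marker kept on the same list although it is no transcription factor, encodes villin, the actin bundler of microvilli. It had 1950.4, 3554.5 and 910.6 CPM in the metastases, against 0.695 and 2.7 CPM in the subcutaneous tumours and 2857.4 CPM in healthy intestine. Its difference of 10.30 ± 0.99 (adjusted p = 0.00219) was called in every fit that left out 1 library. Hnf4g, Isx, Creb3l3 and Klf5 also rose, by 5.01 to 9.27 on the log2 scale. Gata4, a factor of the proximal gut, and Gata6, another gut factor, were not called, and ID8 tumours also express both. Gata4 had 10.1, 347.8 and 113.3 CPM in the metastases, against 14.6 and 204.8 CPM in the subcutaneous tumours and 307.2 to 546.5 CPM in the orthotopic tumours. Vil1 alone was called without subcutaneous tumour 2, 1 of the 12, and without metastasis 1, metastasis 2, metastasis 3 and subcutaneous tumour 3 the counts were 6, 5, 8 and 9.

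Brush border genes, which encode the digestive enzymes and the scaffold of the enterocyte surface, were likewise higher on the intestine: 15 of 18 rose and 0 fell, with a median log2 fold change of 8.80. Sis had 6461.7, 11504.3 and 3852 CPM in the metastases, against 0 and 3.29 CPM in the subcutaneous tumours and 11281.8 CPM in healthy intestine (12.12 ± 2.65, adjusted p = 0.0289). Alpi, intestinal alkaline phosphatase, had 268.4, 1141.1 and 140.3 CPM in the metastases, against 0 and 0.147 CPM in the subcutaneous tumours. With 3 counts in the subcutaneous tumours its ratio was 7474, with a counting interval of 2558 to 36244 (adjusted p = 0.00993). Mgam, maltase-glucoamylase, rose by 11.54 ± 1.97 and Mep1b, a meprin protease, by 10.87 ± 1.91 on the log2 scale, with adjusted p = 0.0118 and 0.013.

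Intestinal transport genes also rose, in 17 of 20 members, and 0 fell, with a median of 9.26. Apoa4, an apolipoprotein of chylomicrons, had 906.3, 2035.7 and 118.8 CPM in the metastases, against no count in either subcutaneous tumour and 1840.4 CPM in healthy intestine. It was at least 14761-fold higher, against a floor of 3 counts over the subcutaneous tumours (adjusted p = 0.0149). Apoa1, the main apolipoprotein of HDL, had 5088.2, 5921.5 and 1398.8 CPM in the metastases, against 0.347 and 0.147 CPM in the subcutaneous tumours (13.99 ± 1.84, adjusted p = 0.00437). Fabp2, the intestinal fatty acid binding protein, had 918.7, 2038.5 and 855.8 CPM in the metastases, against 0 and 0.785 CPM in the subcutaneous tumours (11.68 ± 1.64, adjusted p = 0.0053). The glucose carrier Slc5a1, the peptide carrier Slc15a1, the amino acid carrier Slc6a19 and the cholesterol carrier Npc1l1 rose by 9.01 to 10.33 on the log2 scale.

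Both groups lost every call without subcutaneous tumour 2, with adjusted p = 0.0961 for Sis, 0.0751 for Alpi, 0.0751 for Apoa4 and 0.0587 for Apoa1. Without subcutaneous tumour 3, 11 brush border and 11 transport genes were called, without metastasis 1 it was 13 and 15, without metastasis 2 it was 9 and 15, and without metastasis 3 it was 15 and 17. In metastases 1, 2 and 3 the brush border genes had a median of 83.6%, 111.5% and 26.6% of their healthy intestine level, against 0.0446% and 0.452% in subcutaneous tumours 2 and 3. For the transport genes the medians were 54.1%, 118.9% and 21.4% in the metastases, against 0.0275% and 0.177% in the subcutaneous tumours.

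Goblet cell genes, 10 of 12 of which rose, had their highest median level in metastasis 1. Muc2, the mucin of the gut mucus gel, had 8833.6, 3850.3 and 2886.7 CPM in the metastases, against 0.174 and 7.61 CPM in the subcutaneous tumours and 4680.6 CPM in healthy intestine (10.38 ± 1.79, adjusted p = 0.0125). Zg16, a lectin of goblet granules, had 1313, 561.3 and 357.4 CPM in the metastases, against no count in either subcutaneous tumour. It was at least 10763-fold higher (adjusted p = 0.00219) and was called in every fit that left out 1 library. Tff3, Clca1 and Muc13, which encode a mucosal repair peptide, a secreted mucus protein and a surface mucin, rose by 8.27 to 10.43 on the log2 scale. The list median was 9.35, or 8.37 with members at 0 set to their bound. Relative to healthy intestine the goblet genes stood at a median of 176%, 71.7% and 44.9% in metastases 1, 2 and 3, against 0.0415% and 0.248% in subcutaneous tumours 2 and 3. Zg16 alone stayed called on this list without subcutaneous tumour 2, and without subcutaneous tumour 3, metastasis 1, metastasis 2 and metastasis 3 the counts were 9, 8, 7 and 10.

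Paneth and antimicrobial genes rose in 7 of 13 members, with metastasis 3 highest for the alpha-defensins named here and lowest for Reg3b and Reg3g. Defa21, Defa22 and Defa29 are not on that list and are named for the size of their change. Defa21, an alpha-defensin of Paneth granules, had 115.4, 29.9 and 539.6 CPM in the metastases, against no count in the subcutaneous tumours and 115.1 CPM in healthy intestine, at least 3303-fold higher (adjusted p = 0.0119). Defa22 and Defa29 were at least 2281-fold and 583-fold higher (adjusted p = 0.0232 and 0.00832). Reg3g, a bactericidal lectin, had 1285.3, 883.7 and 30.8 CPM in the metastases, against 0.521 and 0.589 CPM in the subcutaneous tumours and 4062.9 CPM in healthy intestine (10.36 ± 2.02, adjusted p = 0.0193). Reg3b showed the same order, with 3501.9, 1252.2 and 58.3 CPM in the metastases, against 0 and 0.687 CPM in the subcutaneous tumours. The alpha-defensins are a family of near-identical copies among which the authors' counting could split reads. The Reg3 genes are also related copies, though less alike. The calls of Defa21, Defa22 and the whole list were lost without subcutaneous tumour 2, with an adjusted p of 0.0708 for Defa21, 0.0926 for Defa22 and 0.102 for Reg3g. The list had 2 calls without subcutaneous tumour 3, 2 without metastasis 1, 4 without metastasis 2 and 7 without metastasis 3.

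Hormone and stem cell genes gave no call. Of 12 enteroendocrine and tuft genes tested, 0 were called by edgeR, 6 had an unadjusted p under 0.05, DESeq2 called 4 higher and limma-voom 0. Sct, the hormone secretin, came nearest, with 12, 9.17 and 4.63 CPM in the metastases, against 0.347 and 0.295 CPM in the subcutaneous tumours (4.72 ± 1.08, adjusted p = 0.0504). Among 8 crypt stem cell genes edgeR called 0, 1 had an unadjusted p under 0.05, DESeq2 called 1 and limma-voom 0. Olfm4, a crypt base glycoprotein, had 4.62, 57.5 and 28.3 CPM in the metastases, against 0.0868 and 1.08 CPM in the subcutaneous tumours. Lgr5, a marker of crypt stem cells, had 26.9, 9.85 and 9.61 CPM in the metastases, against 6.64 and 89.5 CPM in the subcutaneous tumours and 51.2 to 137.9 CPM in the orthotopic tumours. Lgr5 was therefore higher in ovarian ID8 tumours and in subcutaneous tumour 3 than in any metastasis.

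Genes of drug and bile acid handling rose in 9 of 17 members, with a median of 6.86. Cyp3a13, a cytochrome P450, had 1005.4, 1546.8 and 291.2 CPM in the metastases, against 0 and 2.16 CPM in the subcutaneous tumours (9.79 ± 2.00, adjusted p = 0.023). Nr1i2, the xenobiotic receptor PXR, rose by 6.96 ± 1.72 (adjusted p = 0.0433) and Abcb1a, a drug efflux pump, by 5.41 ± 0.99 (adjusted p = 0.0154). None of the 17 was called without subcutaneous tumour 2, with adjusted p = 0.0882, 0.109 and 0.093 for these 3 genes. Without subcutaneous tumour 3, metastasis 1, metastasis 2 and metastasis 3 the list had 5, 5, 5 and 10 calls.

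**Figure D2:**
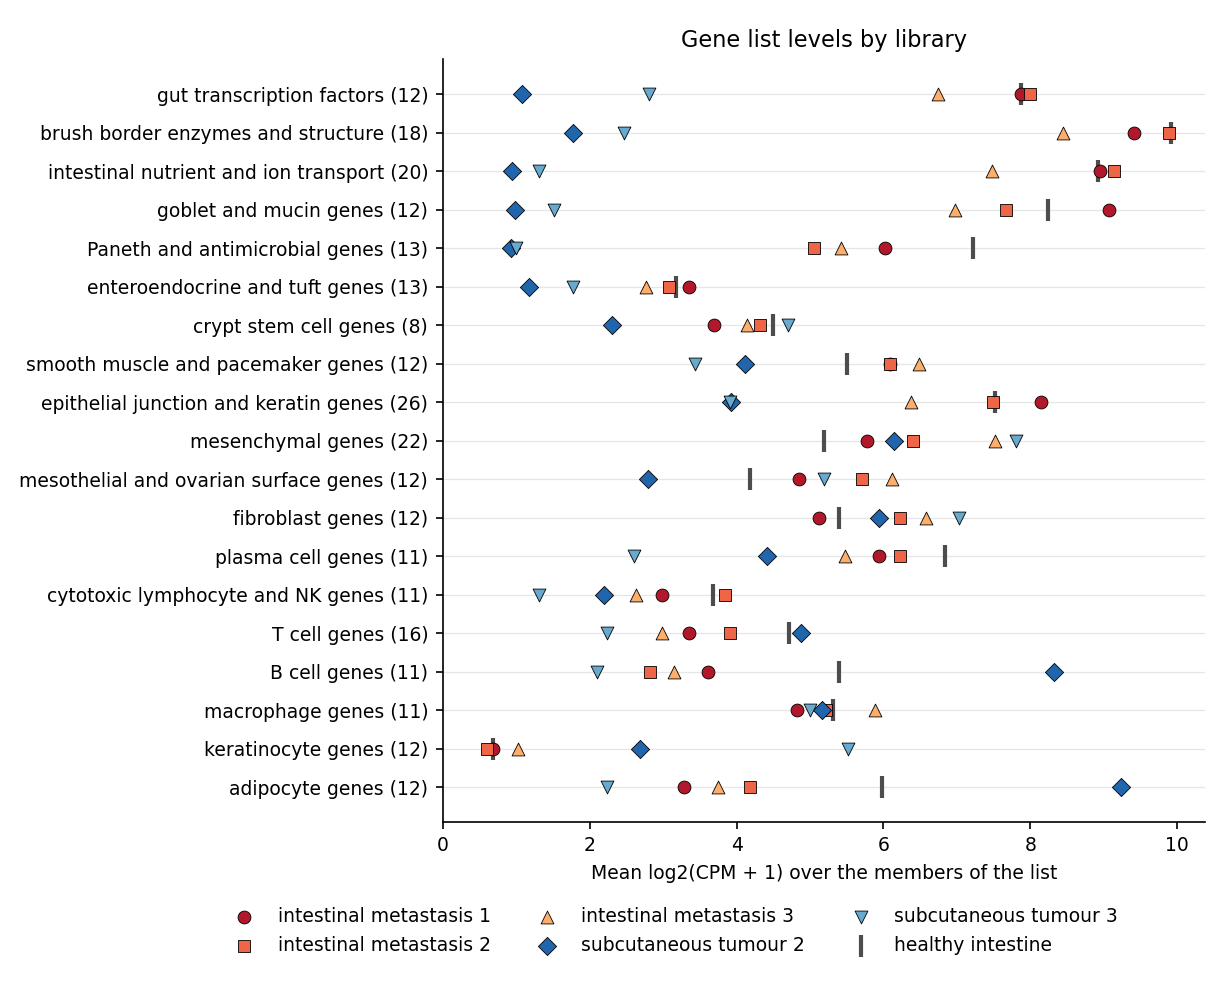
Each row is a gene list with its number of members in brackets, and each mark is the mean log2(CPM + 1) of the list in 1 library, with the healthy intestine library as a dark bar. Gut epithelial lists sit far right of the subcutaneous tumours (blue) in all 3 metastases (red to orange), while B cell and adipocyte genes are high in subcutaneous tumour 2 and keratinocyte genes are highest in subcutaneous tumour 3.

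Genes that mark segments of the gut separated the metastases from one another. Of the proximal genes, Lct, Rbp2, Apoa4, Gata4, Onecut2 and Cybrd1 were highest in metastasis 2 among the metastases, and Bco1 and Slc40a1 in metastasis 1. Lct, the lactase of the jejunum, had 7.87, 1914.1 and 321.6 CPM in metastases 1, 2 and 3, against 0.695 and 2.26 CPM in the subcutaneous tumours and 2149.6 CPM in healthy intestine. Fabp1, whose promoter is printed above, had 8.29, 582.7 and 13.1 CPM in the metastases, against 0.0868 and 0 CPM in the subcutaneous tumours and 434.3 CPM in healthy intestine. Its ratio against 2 counts in the subcutaneous tumours was 4370, with a counting interval of 1210 to 36083 (adjusted p = 0.0284), and most of its level came from metastasis 2.

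Several ileal and colonic genes were highest in metastasis 1. Slc10a2, the bile acid uptake carrier of the ileum, had 376, 0.424 and 11 CPM in metastases 1, 2 and 3, against 0 and 0.933 CPM in the subcutaneous tumours and 0.822 CPM in healthy intestine. Aqp8, a water channel of colonocytes, had 425.7, 0.934 and 1.17 CPM in the metastases, against 0 and 0.0982 CPM in the subcutaneous tumours and none in healthy intestine. Hoxb9, a posterior homeobox gene, had 72, 0.424 and 3.35 CPM in the metastases, against 0.955 and 6.87 CPM in the subcutaneous tumours. None of these 3 genes was called, and in each of them metastasis 1 stood above the other two.

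Fabp6, the ileal bile acid binding protein, had 106.9, 0 and 178.3 CPM in the metastases, and no count in the subcutaneous tumours or in healthy intestine. Fgf15, the ileal hormone that signals bile acid return to the liver, had 36.1, 0 and 147.8 CPM in the metastases, against 0.0868 and 0 CPM in the subcutaneous tumours and none in healthy intestine. Metastases 1 and 3 thus had ileal transcripts of which metastasis 2 and the healthy intestine library had no count. Of the segment lists, 3 of 8 proximal genes, 3 of 6 ileal genes and 2 of 7 colonic genes rose. All 3 lists had 0 calls without subcutaneous tumour 2. Without subcutaneous tumour 3 they had 2, 2 and 0, without metastasis 1 they had 3, 2 and 1, without metastasis 2 they had 3, 2 and 1, and without metastasis 3 they had 3, 3 and 2.

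**Figure D3:**
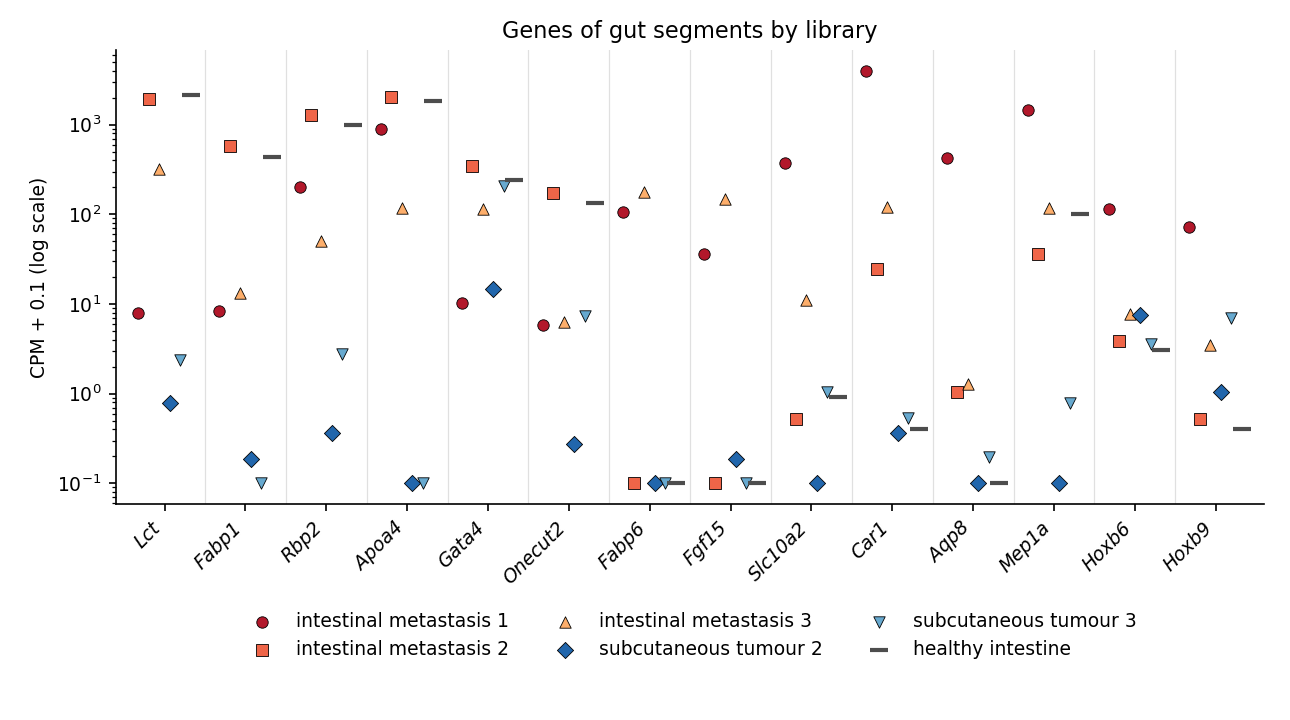
CPM (log scale, 0.1 added) of 14 genes of gut segments or the antero-posterior axis in each of the 3 metastases, both subcutaneous tumours and the healthy intestine library. Proximal genes on the left (Lct, Fabp1, Rbp2) peak in metastasis 2 and healthy intestine, Fabp6 and Fgf15 are high in metastases 1 and 3, and Slc10a2, Car1, Aqp8, Mep1a, Hoxb6 and Hoxb9 peak in metastasis 1.

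Smooth muscle genes were higher on the intestine, with a median above healthy gut in each metastasis. Of 12 smooth muscle and pacemaker genes 6 rose and 0 fell, with a median of 2.56. Myh11, smooth muscle myosin, had 564.6, 646.5 and 844 CPM in the metastases, against 44.1 and 17.1 CPM in the subcutaneous tumours and 314.3 CPM in healthy intestine (4.48 ± 1.08, adjusted p = 0.0398). Actg2, the enteric actin, had 79.1, 96.8 and 126.2 CPM in the metastases, against 2.34 and 1.37 CPM in the subcutaneous tumours (5.75 ± 1.47, adjusted p = 0.0483). Here metastasis 3 was highest, the reverse of its place among the brush border medians. Relative to healthy intestine the list stood at a median of 137.4%, 142.3% and 183.4% in metastases 1, 2 and 3, against 29.8% and 18.6% in subcutaneous tumours 2 and 3. Kit and Ano1, which mark the pacemaker cells of the gut wall and are also high in orthotopic ID8 tumours, were not called and overlapped between the groups. Without subcutaneous tumour 2 or 3 the list had 0 calls (adjusted p = 0.106 and 0.161 for Myh11), without metastasis 1 or 2 it had 1 each, and without metastasis 3 it had 4.

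Enteric nerve genes gave no edgeR call, but they were near the floor. Only 5 of the 14 members stood at 1 CPM or more in healthy intestine, where the list summed to 29.4 CPM. Those 5 had a median of 264.5%, 137.4% and 236.7% of their gut level in metastases 1, 2 and 3. In subcutaneous tumours 2 and 3 it was 70.2% and 117%. At such levels the list could hardly show a rise. Among 14 enteric neuron and glia genes edgeR called 0, 2 had an unadjusted p under 0.05, DESeq2 called 2 lower and limma-voom 0, and the median was 0.29. Sox10, a factor of glia and Schwann cells, had 1.26, 0.17 and 1.28 CPM in the metastases, against 14.3 and 4.37 CPM in the subcutaneous tumours (adjusted p = 0.102). Vip, a gut neuropeptide, had 5.98, 1.95 and 1.42 CPM in the metastases, against 0.0868 and 0.491 CPM in the subcutaneous tumours (adjusted p = 0.301).

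Immune genes differed by cell type. Igha, the heavy chain of mucosal IgA, had 2113.3, 5223.3 and 1900 CPM in the metastases, against 47.8 and 2.85 CPM in the subcutaneous tumours and 6799.8 CPM in healthy intestine (6.92 ± 1.48, adjusted p = 0.0256). Jchain, which joins IgA into dimers, rose by 6.12 ± 1.41 (adjusted p = 0.035). The other 9 plasma cell genes did not pass, and the IgG chain Ighg2c, which has close copies among which reads could be split, overlapped between the groups, with 80.8, 101.6 and 59.3 CPM in the metastases, against 107.5 and 3.44 CPM in the subcutaneous tumours. Cytotoxic lymphocyte genes went both ways, 6 with a positive and 5 with a negative fold change. Of these 11 genes 2 were called higher and 0 lower, and 3 had every metastasis below both subcutaneous tumours. Gzma, a granzyme, had 45.7, 154.3 and 31.1 CPM in the metastases, against 0.434 and 0.196 CPM in the subcutaneous tumours (7.90 ± 1.55, adjusted p = 0.02), and Gzmb rose by 5.90 ± 1.48 (adjusted p = 0.0447). Itgae, the integrin of intraepithelial lymphocytes, had 53, 119.9 and 44.9 CPM in the metastases, against 15.2 and 5.25 CPM in the subcutaneous tumours (adjusted p = 0.184). Without subcutaneous tumour 2 neither list had a call (adjusted p = 0.0642 for Igha and 0.0941 for Gzma). Without subcutaneous tumour 3 they had 1 and 0, without metastasis 1 they had 1 and 1, without metastasis 2 they had 0 and 0, and without metastasis 3 they had 3 and 2.

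Macrophage genes went both ways, 6 with a positive and 5 with a negative fold change, and 9 of 11 overlapped between the groups. Among the 11, edgeR called 0, 1 had an unadjusted p under 0.05, DESeq2 called 1 and limma-voom 0. C1qa, a complement subunit made by tissue macrophages, had 34.1, 49.5 and 83.1 CPM in the metastases, against 48.8 and 50.6 CPM in the subcutaneous tumours. Mertk, a receptor for the uptake of dying cells, had 156.3, 322 and 104.8 CPM in the metastases, against 28.1 and 30 CPM in the subcutaneous tumours and 310.2 CPM in healthy intestine (2.74 ± 0.91, adjusted p = 0.109). T cell genes also gave 0 edgeR calls among 16, with 3 at an unadjusted p under 0.05, 1 by DESeq2 and 0 by limma-voom.

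The 241 genes called lower on the intestine included adipocyte, B cell, lymphoid and keratinocyte genes, and the subcutaneous tumours differed from each other in them. In 64 of the 241, subcutaneous tumour 2 stood more than 4-fold above tumour 3, in 13 tumour 3 stood more than 4-fold above tumour 2, and 115 (47.7%) lay within 2-fold, against 62.4% of all genes tested (0.5 CPM added). Adipocyte and B cell genes were on the tumour 2 side. Fabp4, the fatty acid binding protein of fat cells, had 16.7, 25.5 and 27.3 CPM in the metastases, against 2620.5 and 12 CPM in subcutaneous tumours 2 and 3. Cr2, the complement receptor of mature B cells and follicular dendritic cells, had 6.61, 5.86 and 10.1 CPM in the metastases, against 579.3 and 4.71 CPM in subcutaneous tumours 2 and 3. In both genes subcutaneous tumour 3 lay below every metastasis.

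Both were called lower (-5.83 ± 1.47 for Fabp4, adjusted p = 0.0453, and -5.28 ± 1.24 for Cr2, adjusted p = 0.037) although their groups overlapped, and without subcutaneous tumour 2 their signs turned, to 0.95 and 0.67 (adjusted p = 0.615 and 0.639). Of 12 adipocyte genes 2 were called lower, Fabp4 and the hormone gene Lep, and of 11 B cell genes 4 were, Cr2, Fcer2a, Blk and Ebf1. The list medians were -5.42 and -4.57 with all 5 libraries, and 2.03 and 1.74 without subcutaneous tumour 2, when 0 members of either list were called. Without subcutaneous tumour 3, 9 adipocyte and 11 B cell genes were called, and without any 1 metastasis 0 of either list were. The summed level of the B cell list was 175.4 to 214.5 CPM in the metastases, against 4782.4 CPM in subcutaneous tumour 2, 78.2 CPM in subcutaneous tumour 3 and 754 CPM in healthy intestine. For the adipocyte list it was 272.2 to 460.7 CPM in the metastases, against 12990 and 64.2 CPM in subcutaneous tumours 2 and 3 and 1129.9 CPM in healthy intestine.

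Genes of lymphoid tissue stood beside them in subcutaneous tumour 2. Glycam1, a ligand of lymph node vessels for homing lymphocytes, had 0.21, 0.255 and 0.214 CPM in the metastases and 69.3 CPM in healthy intestine. In subcutaneous tumours 2 and 3 it had 215 and 0.393 CPM (-8.86 ± 1.97, adjusted p = 0.0308). Without subcutaneous tumour 2 its log2 fold change was -0.77. Cxcl13, the chemokine of B cell follicles, had 24.4, 8.23 and 37.2 CPM in the metastases, against 598.3 and 6.23 CPM in subcutaneous tumours 2 and 3 (adjusted p = 0.14). Of the 8 genes tested on that list 2 were called lower, Glycam1 and Cxcr5; it had 5 calls without subcutaneous tumour 3 and 0 in each fit without another library. Cidea and Cox8b, which are known from brown and beige fat, and Lep were at 0.34 CPM or less in every metastasis, and had 56.7, 56.1 and 90.4 CPM in subcutaneous tumour 2 and 1.42, 0.834 and 1.87 CPM in subcutaneous tumour 3.

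Keratinocyte genes were lower on the intestine against both subcutaneous tumours, though tumour 3 had more of them. Of 12, 6 fell and 0 rose, with a median of -5.52. Krt5, whose promoter is printed above, had 0.315, 0 and 0.0712 CPM in the metastases, against 19.1 and 315.3 CPM in subcutaneous tumours 2 and 3 (-10.76 ± 2.21, adjusted p = 0.0232). Trp63, the master factor of stratified epithelium, had 0.63, 0.594 and 2.21 CPM in the metastases, against 18.3 and 75.2 CPM in the subcutaneous tumours (-5.31 ± 1.11, adjusted p = 0.024). Krt10, the keratin of the upper epidermis, fell by 3.82 ± 0.63 (adjusted p = 0.00983). The summed level of the list was 10.1 to 24.6 CPM in the metastases, against 146.4 and 991.9 CPM in subcutaneous tumours 2 and 3. Krt10 alone of the list stayed called without subcutaneous tumour 2 (adjusted p = 0.0471), where Krt5 had an adjusted p of 0.0587. Without subcutaneous tumour 3, metastasis 1 and metastasis 2 the list had 1 call each, and without metastasis 3 it had 5. Hair follicle and skeletal muscle genes gave 0 edgeR calls among 10 tested each, with 5 and 0 at an unadjusted p under 0.05, 1 and 0 by DESeq2, and 0 and 0 by limma-voom.

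**Figure D4:**
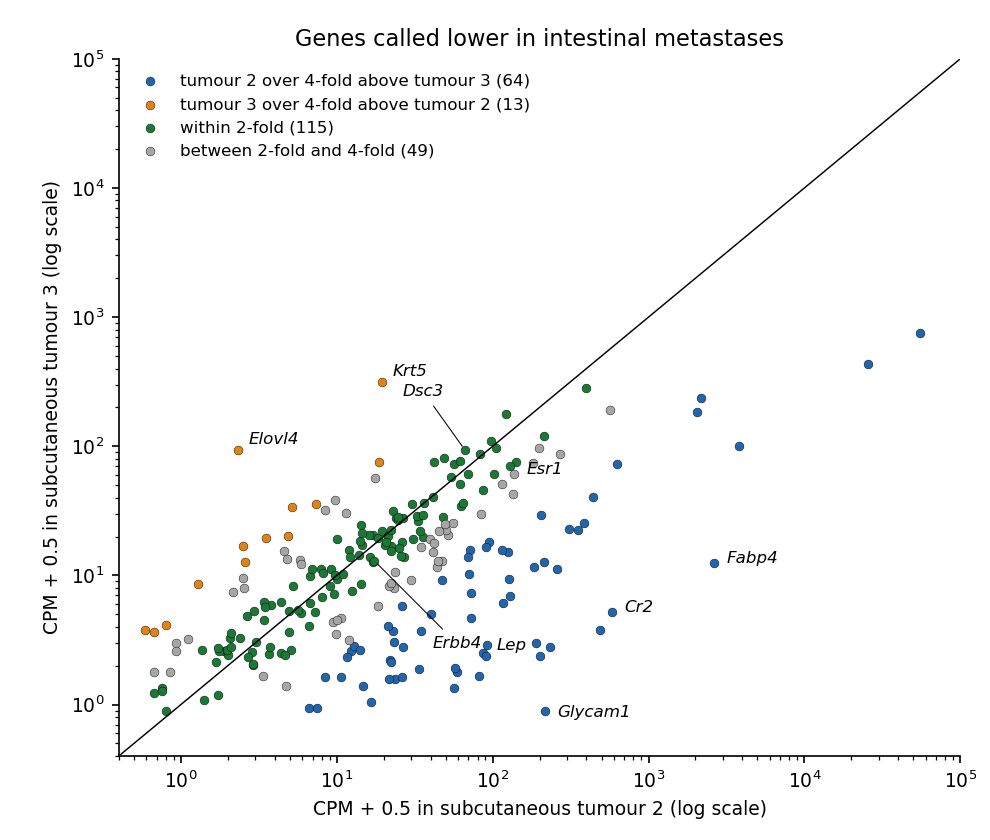
The 241 genes called lower in the intestinal metastases, by their CPM (0.5 added, log scales) in subcutaneous tumour 2 and subcutaneous tumour 3, with the line of equal level. 64 genes (blue) lie more than 4-fold toward tumour 2, 13 (orange) more than 4-fold toward tumour 3, and 115 (green) within 2-fold.

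A group of 21 genes fell on the intestine and stood at a like level in both subcutaneous tumours. They were picked after their values were seen, as genes called lower by a log2 fold change of -2 or beyond, within 2-fold of each other in the subcutaneous tumours and at a mean of 10 CPM or more there. Erbb4, a receptor kinase for neuregulins, had 0, 0.0849 and 0.285 CPM in the metastases, against 16.9 and 12.5 CPM in the subcutaneous tumours and 3.62 to 16.9 CPM in the orthotopic tumours (-6.63 ± 1.25, adjusted p = 0.0169). Tfap2a, the AP-2 alpha factor of surface ectoderm, had 0.315, 0.127 and 0.356 CPM in the metastases, against 13.8 and 24.2 CPM in the subcutaneous tumours and 0.0519 to 0.332 CPM in the orthotopic tumours (-6.15 ± 1.00, adjusted p = 0.00978). Dsc3, a desmosomal cadherin of stratified epithelium, had 0.21, 0.509 and 1.64 CPM in the metastases, against 65.7 and 93.6 CPM in the subcutaneous tumours (-6.58 ± 1.29, adjusted p = 0.0194). Healthy intestine had 23.5 CPM of Dsc3, above every metastasis.

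Of the 21, 14 averaged 10 CPM or more in the orthotopic tumours, among them Erbb4, Haao, Zfp423 and Dhrs7, while 7, among them Tfap2a and Dsc3, averaged less. Zfp423, a zinc finger factor of fat precursors, had 6.3, 8.78 and 5.09 CPM in the metastases, against 36 and 35.8 CPM in the subcutaneous tumours and 24.7 to 61.1 CPM in the orthotopic tumours (-2.41 ± 0.59, adjusted p = 0.0427). Rpl39, a ribosomal protein gene, had 25, 16.2 and 32.6 CPM in the metastases, against 120.7 and 177.9 CPM in the subcutaneous tumours (-2.60 ± 0.44, adjusted p = 0.0116). Haao alone of these 21 stayed called without subcutaneous tumour 2; the adjusted p was 0.0688 for Erbb4, 0.0564 for Tfap2a, 0.0677 for Dsc3, 0.108 for Zfp423 and 0.0583 for Rpl39.

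Just 10 genes were called in each of the 5 fits that left out 1 library, 8 higher and 2 lower, a set picked for that property. The 8 were Vil1, Zg16, Cldn7, Misp, Smim24, Aldh1b1, Tmc4 and Gm1123. Misp, an actin-binding protein of brush border rootlets, had 989.1, 634.9 and 220.3 CPM in the metastases, against 1.22 and 0.491 CPM in the subcutaneous tumours (9.48 ± 1.01, adjusted p = 0.0027). Aldh1b1, a mitochondrial aldehyde dehydrogenase, had 211.1, 158.9 and 141.8 CPM in the metastases, against 2.61 and 0.687 CPM in the subcutaneous tumours (6.69 ± 0.76, adjusted p = 0.0028). Among the 2 that fell, Haao, an enzyme of the kynurenine pathway that turns tryptophan toward NAD, had 2.1, 1.99 and 1.74 CPM in the metastases, against 25.6 and 17.6 CPM in the subcutaneous tumours and 21.8 to 40.3 CPM in the orthotopic tumours (-3.48 ± 0.42, adjusted p = 0.0028). Fabp5, the epidermal fatty acid binding protein, had 25.6 CPM in the cultured ID8 line, 19.7 CPM in healthy ovary and 8.78 CPM in healthy intestine. It had 0.945, 1.19 and 1.42 CPM in the metastases, against 43.3 and 11.1 CPM in the subcutaneous tumours and 1.53 to 2.16 CPM in the orthotopic tumours (-4.50 ± 0.53, adjusted p = 0.0028). Their highest adjusted p in those 5 fits was 0.0477 for Haao, Tmc4 and Smim24.

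Epithelial junction and keratin genes were higher on the intestine in all 26 members, with no overlap between the groups, and 11 of them were called (median 3.45). Cdh1, E-cadherin, had 1774.5, 1564.3 and 442 CPM in the metastases, against 55.3 and 49.7 CPM in the subcutaneous tumours (4.59 ± 0.89, adjusted p = 0.0191). It had 5.52 to 14.4 CPM in the orthotopic tumours, 94 CPM in the cultured ID8 line and 1251 CPM in healthy intestine. Cldn7, a claudin of tight junctions, had 605.2, 448.9 and 138.8 CPM in the metastases, against 4.82 and 2.36 CPM in the subcutaneous tumours and 391.1 CPM in healthy intestine (6.79 ± 0.73, adjusted p = 0.0027). Krt20, a keratin of differentiated gut epithelium, rose by 9.62 ± 1.78 (adjusted p = 0.0159), whereas Krt18, which ID8 tumours also express, had 118, 70.1 and 76.1 CPM in the metastases, against 32.9 and 34.5 CPM in the subcutaneous tumours and 46 to 106.2 CPM in the orthotopic tumours (adjusted p = 0.357). Relative to healthy intestine the list stood at a median of 146.9%, 104.1% and 38.8% in metastases 1, 2 and 3, against 8.04% and 7.53% in subcutaneous tumours 2 and 3, the order also seen in the gut transcription factors (139.7%, 121.9% and 44.6% in the metastases). The share of these junction genes that comes from gut epithelium was not tested. Cldn7 alone stayed called without subcutaneous tumour 2 (adjusted p = 0.0471; 0.0973 for Cdh1), and without subcutaneous tumour 3, metastasis 1, metastasis 2 and metastasis 3 the list had 3, 5, 4 and 13 calls.

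Mesenchymal genes were called higher in 2 of 22 members, Acta2 and Tagln, both of which are also smooth muscle genes, and lower in 0. Fold changes were negative in 16 of the 22. The list median was -0.7, and 0.36 with TMM factors from genes low in gut. Over all 22671 genes tested, 756 were called higher and 241 lower. Vim, the intermediate filament of mesenchymal and ID8 cells, had 158.8, 341.2 and 1292 CPM in the metastases, against 536 and 1147.3 CPM in the subcutaneous tumours (adjusted p = 0.769). The fibrillar collagen gene Col1a1 had 129.2, 492.4 and 829.8 CPM in the metastases, against 287.7 and 2815.5 CPM in the subcutaneous tumours (adjusted p = 0.359). In both genes metastasis 1 was lowest and metastasis 3 highest of the metastases, and the groups overlapped. Transcription factors of epithelial to mesenchymal transition (EMT) had negative fold changes in 9 of 9 members, against 13333 of 22671 genes tested, with 1 called. Their median was -1.67, and -0.77 with TMM factors from genes low in gut. Snai2 (Slug), a repressor of E-cadherin, had 1.68, 2.89 and 4.84 CPM in the metastases, against 14 and 16.8 CPM in the subcutaneous tumours and 6.84 to 14.2 CPM in the orthotopic tumours (-2.28 ± 0.57, adjusted p = 0.0437, and 0.103 to 0.158 without subcutaneous tumour 2 or 3 or metastasis 1 or 2). Zeb1, another such repressor, had 31.6, 40.1 and 68.6 CPM in the metastases, against 142.2 and 92.2 CPM in the subcutaneous tumours (adjusted p = 0.0665). Of the fits that left out 1 library, Acta2 was called only in that without metastasis 1 and Tagln only in that without metastasis 3.

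Of 12 Müllerian and ovarian carcinoma genes edgeR called 1, lower on the intestine, while 241 of 22671 genes tested were called lower; DESeq2 called 2 higher and 2 lower. Esr1, estrogen receptor alpha, had 9.03, 11.3 and 13.1 CPM in the metastases, against 137.2 and 60.7 CPM in the subcutaneous tumours, 51.8 to 116.6 CPM in the orthotopic tumours and 10.3 CPM in healthy intestine (-3.15 ± 0.42, adjusted p = 0.00437, and 0.0564 without subcutaneous tumour 2). The cultured ID8 line had 12.3 CPM of Esr1 and healthy ovary 542.5 CPM. All 3 metastases thus lay near both healthy intestine and the cultured line, and below every ovarian or subcutaneous tumour. Of the 12 mesothelial and ovarian surface genes 1 rose, while 756 of 22671 genes tested were called higher. It was Krt8, a simple keratin that gut epithelium also makes (log2 fold change of 4.41, and 3.97 without subcutaneous tumour 2). Wt1, the factor of mesothelium and of ID8 cells, had 17.8, 78.5 and 199.4 CPM in the metastases, against 23 and 385.2 CPM in the subcutaneous tumours, 345.3 to 625.1 CPM in the orthotopic tumours and 2.31 CPM in healthy intestine (adjusted p = 0.551). The order of Wt1, lowest in metastasis 1 and highest in metastasis 3, was the reverse of that of Cdx2, and within the subcutaneous pair tumour 3 had far more than tumour 2.

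A trace of genes that the ID8 line expresses was read from 8 genes at 20 CPM or more in the cultured line. These 8 genes averaged 5 CPM or more in the orthotopic tumours and stood under 1 CPM in healthy ovary and healthy intestine. Their median level, as a percent of the orthotopic mean, was 2.56%, 30.8% and 72.9% in metastases 1, 2 and 3, against 8.26% and 182.6% in subcutaneous tumours 2 and 3 and 1.85% in healthy intestine. Pax3, a paired-box factor, is one of them, with 0.21, 11.7 and 14.2 CPM in the metastases, against 2 and 55.1 CPM in the subcutaneous tumours. Metastasis 1 and subcutaneous tumour 2 were thus the libraries with the least of these transcripts at either site, and metastasis 1 lay near the healthy gut. With the ovary filter left out, 57 genes qualified, of which 0 were called higher and 1 lower. All 57 were under 1 CPM in healthy intestine, where 3 of 7508 genes tested were called higher (0.04%) and 84 lower (1.12%). Over all 22671 genes tested, 756 and 241 were. The 0 called higher thus stands near the share of all genes that pass the gut filter. The median of the 57 was 6.99%, 18.6% and 63.5% in the metastases, against 9.34% and 74.5% in the subcutaneous tumours. Metastasis 2 had more of the trace than metastasis 1 although its brush border and transport medians were higher too. The series has no healthy skin library, so the trace genes were not filtered against skin. A share of their level that comes from skin cells in the subcutaneous tumours cannot be told apart. The part of this trace in the differences above was not tested.

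**Figure D5:**
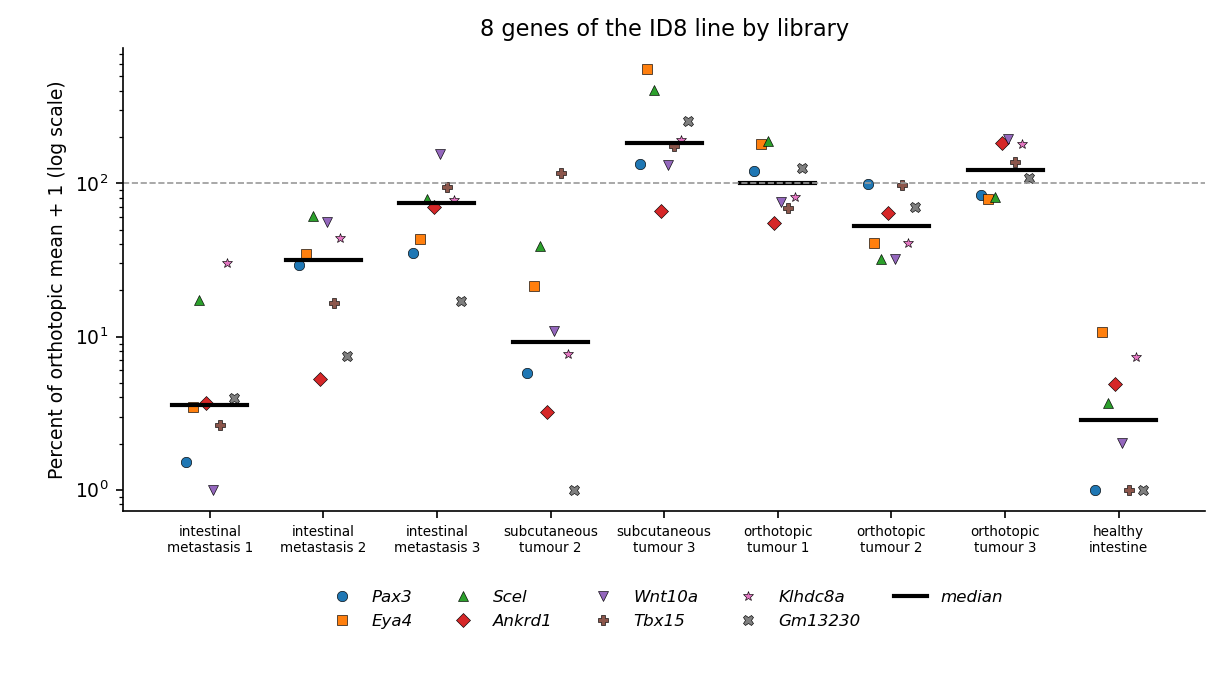
Level of 8 ID8 line genes as a percent of their mean in the 3 orthotopic tumours (log scale, 1 added) in each library, with the median as a black bar and the dashed line at the orthotopic mean. The median is 2.56% in metastasis 1 and 72.9% in metastasis 3, and 8.26% in subcutaneous tumour 2 and 182.6% in subcutaneous tumour 3.

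Of 19 proliferation genes 1 rose, the mitotic kinase Plk1, while 756 of all 22671 genes tested were called higher. Plk1 had 32.8, 27.3 and 32.2 CPM in the metastases, against 5.3 and 6.92 CPM in the subcutaneous tumours (2.33 ± 0.54, adjusted p = 0.0344). Healthy intestine had 30.6 CPM. Plk1 was called in 1 of the 5 fits that left out a library, and its log2 fold change was 2.15 without subcutaneous tumour 2. Mki67, a marker of cycling cells, had 61.1, 235.1 and 488.2 CPM in the metastases, against 118.6 and 180.8 CPM in the subcutaneous tumours, and the groups overlapped. In all, 21 of the 46 lists had no member called, among them endothelial, fibroblast, pericyte, mast cell, hypoxia, interferon, MHC and Hox genes. Of the 227 genes tested on those lists 45 had an unadjusted p under 0.05, against 5121 of all 22671, DESeq2 called 10 higher and 16 lower, and limma-voom 0. Kdr, the VEGF receptor of endothelium, had no overlap between the groups but no call, with 26.2, 48.4 and 38.6 CPM in the metastases, against 153.9 and 174.5 CPM in the subcutaneous tumours and 174.9 to 318.2 CPM in the orthotopic tumours (-2.12 ± 0.67, adjusted p = 0.0935).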

How the data were processed

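Per the labels' protocols, Trizol was used for total RNA, and libraries kept strand (NEBNext Ultra II directional, modified). The deposited values are the authors' raw read counts per Ensembl gene (43629 genes), and the submitters' processing notes name HISAT, HISAT2, featureCounts and DESeq2, without versions. The same notes list the builds mm39 and hg19, so no gene coordinates were taken from them. A further column headed as a subcutaneous tumour (1 in all) matched no label and was not used. Gene symbols were found for 42462 identifiers.

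The counts went into edgeR 4.0.16 (R 4.3.3). Tested were the 22671 genes above 0.5 CPM in 2 or more libraries, scaled by TMM, with all 17 libraries (12031221 to 38902048 counts) in 1 robust quasi-likelihood model with a mean per group and 9 residual degrees of freedom. A fit of all groups was used because 3 against 2 libraries give little information on spread. Printed CPM are TMM-scaled; filters and the split at 1 CPM in healthy intestine use library totals. Alternatives used DESeq2 1.42.0 and limma-voom 3.58.1. The model was also run on simulated counts that had the same spread in every gene and library. That run therefore cannot check how the model handles spread that differs between groups. Groups at 0 are bounded by 3 counts over the group, and ratios on 1 to 3 counts carry exact Poisson 95% intervals; both cover counting error only, as the reads carry no molecular identifiers.

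The members and the 46 lists (535 genes) were chosen with earlier results of these data known. Genes were named as the 12 largest changes per direction (absolute log2 fold change of at least 1, mean of at least 10 CPM, no overlap), 8 more per direction under 1 CPM in healthy intestine, up to 4 members per list by p, and members that show a list by library. Clone names, numbered models and receptor segments were left out of the first 2 parts of that rule. Some genes that the rule names are not reported here.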

Additional observations from a re-analysis of the deposited data

How the results depend on the processing

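Against 997 genes called either way, DESeq2 called 3165 (1914 higher, 1251 lower), of which 740 and 237 were among the edgeR calls, limma-voom with sample weights called 300 and the replicate block 476 (422 higher, 54 lower). A fit of only the 5 libraries compared called 0, with 3741 genes at an unadjusted p under 0.05. Leaving out 1 library each gave 13 to 1408. Scaling and filters moved the count by less than 1.5 times: 971 with relative log expression factors, 665 with library totals, 1409 with factors from genes low in gut, 708 with no filter on low counts, 1081 with a stricter one and 999 with replicated groups only. Under 1 CPM in healthy intestine edgeR made 87 calls. There DESeq2 made 478, limma-voom 25, no filter 51, the 5 libraries alone 0, the replicate block 23, leaving out 1 library each 1 to 119, and a limit of 5 CPM in healthy intestine 160. For limits of 0.5 CPM and the other scalings the count was 67 to 78. The split moved more than that count. It was 3 higher and 84 lower in the main fit, and 23 and 51 with factors from genes low in gut. With DESeq2 it was 32 higher and 446 lower. The causes of these shifts were not tested, and the fits that left out a library also had fewer samples.

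Of 80 named genes called, 4 turned sign, each without subcutaneous tumour 2: Fabp4 to 0.95, Cr2 to 0.67, Fcer2a to 0.45 and Cxcr5 to 0.73, with adjusted p = 0.615 to 0.779. Their other extreme, without subcutaneous tumour 3, was -6.74, -6.18, -6.13 and -5.45. No called gene on the lists or among those named changed sign with another scaling. The replicate numbers are only shared numbers, not a known pairing: same-numbered libraries deviated together at r = 0.113 and 0.19, and the block keeps 403 of the higher and 49 of the lower calls. Counting depth is thin for genes near 1 CPM, and the subcutaneous group has 2 tumours that differ in fat, B cell and keratinocyte genes.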
